A study of Homo sapiens with 3 samples.

Results

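The clustered protocadherin genes, 53 of the 19970 protein-coding genes annotated on the autosomes and chromosome X, were examined for H3K4me3 and H3K27ac in KBM7 cells. The members are the RefSeq genes whose symbols begin with PCDHA, PCDHB or PCDHG and end in a number. This rule uses no measured value, but it was set with earlier results of these data known. KBM7 is an established human line grown from a chronic myeloid leukaemia, in which most chromosomes are present as a single copy, and the cells used here were wild type and untreated. ChIP-seq was done with 1 library for H3K27ac (Abcam antibody), a mark of active promoters and enhancers, and 1 for H3K4me3 (Millipore antibody), a mark of promoters, beside 1 input library. Each mark was thus read once, so values carry no replicate error, and no test between conditions was possible. Sequencing depth was known only from the fragments under each peak.

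Clustered protocadherins are cadherin-like surface proteins best known from neurons, where each cell makes a small set of them and uses it as a label of its own identity. Each alpha and gamma gene has its own promoter and its own large first exon, which is spliced to constant exons shared by the whole alpha or the whole gamma cluster, whereas beta genes stand alone. Choice among the promoters is known to involve the factor CTCF, cohesin and DNA methylation. The alpha and gamma clusters each end in genes called C-type, which many neurons use more evenly than the others.

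In the gene records all 15 alpha genes run to the same coordinate, 141012347, and all 22 gamma genes to 141512975, so only the lower coordinate separates one gene from the next. Every member found in the promoter table lies on the plus strand, and the lower coordinate was taken as the start. A gene was counted as carrying a mark when a peak of the authors' list shared at least 1 bp with the window of 1 kb either side of this start. The starts run from 140786140 (PCDHA1) to 141489081 (PCDHGC5) of chromosome 5 in hg38.

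In all, 6 starts carried a mark, and the bases just before 5 of them are shown because the rest of the account turns on these promoters. The bases before 3 starts without a mark follow, those of PCDHGA9 and PCDHGB7, which stand on either side of PCDHGA10 with PCDHGB6 between, and of PCDHGC4, the next gene after PCDHGC3. All are 100 bases of the plus strand of GRCh38.p14 from RefSeq, ending at the base before the gene record. Capitals mark the word CGCT, the core of an element that protocadherin promoters are known to share.
PCDHGB2, chr5:141359894-141359993: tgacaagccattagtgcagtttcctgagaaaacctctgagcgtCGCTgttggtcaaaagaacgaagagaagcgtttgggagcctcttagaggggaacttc
PCDHGA10, chr5:141412887-141412986: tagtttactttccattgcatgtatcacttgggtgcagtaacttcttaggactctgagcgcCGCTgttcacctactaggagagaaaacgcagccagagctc
PCDHGC3, chr5:141475866-141475965: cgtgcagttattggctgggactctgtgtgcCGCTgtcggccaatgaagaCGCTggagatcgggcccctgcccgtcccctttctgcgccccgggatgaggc
PCDHAC1, chr5:140926199-140926298: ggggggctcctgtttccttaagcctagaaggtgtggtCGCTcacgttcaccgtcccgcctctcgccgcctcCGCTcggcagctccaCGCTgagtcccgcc
PCDHB5, chr5:141135106-141135205: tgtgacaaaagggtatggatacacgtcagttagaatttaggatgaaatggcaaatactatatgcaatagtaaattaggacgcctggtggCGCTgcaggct
PCDHGA9, chr5:141402678-141402777: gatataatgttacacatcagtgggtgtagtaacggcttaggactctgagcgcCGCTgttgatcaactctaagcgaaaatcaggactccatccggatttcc
PCDHGB7, chr5:141417577-141417676: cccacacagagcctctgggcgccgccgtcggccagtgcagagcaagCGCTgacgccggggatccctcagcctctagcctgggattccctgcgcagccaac
PCDHGC4, chr5:141484930-141485029: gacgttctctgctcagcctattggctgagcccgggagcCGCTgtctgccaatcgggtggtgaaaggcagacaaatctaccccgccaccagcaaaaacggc
The word stands in each of the 8, with or without a mark. In PCDHGA10 it begins 40 bases before the start and in PCDHGA9, which carries no mark, 48 bases before it. In PCDHB5 the only copy begins 11 bases before the start.

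Most of the protocadherin starts were bare. H3K4me3 was found at 6 of 53 starts (11.3%), against 37.9% of all protein-coding genes at their lower coordinate. H3K27ac was found at 4 of 53 (7.55%), against 38.3% of all genes. Both marks stood at 4 (7.55%, against 34.0%) and neither at 47 (88.7%, against 57.8%). For a gene on the minus strand the lower coordinate is its far end, so the 8065 genes whose promoter entries all lie on the plus strand are the closer comparison. Of these 66.6% had H3K4me3, 62.6% H3K27ac, 60.5% both and 31.4% neither. The shares of members with a mark lay well below both backgrounds. The second background holds only genes with a promoter entry, which 6 of the 53 members lack. Strand and entry therefore cannot be told apart in the step from the first background to the second. Whether reads that fit several similar protocadherin copies were dropped is not stated, and whether this lowered the counts of members was not tested. Genes are not replicates, and these counts describe the 2 libraries.

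The 4 starts with both marks were PCDHA3, PCDHGB2, PCDHGA10 and PCDHGC3, and PCDHAC1 and PCDHB5 had H3K4me3 alone. In the alpha cluster 1 of 13 regular genes and 1 of 2 C-type genes carried a mark. In the beta cluster 1 of 16 did, with H3K4me3 only. In the gamma cluster 1 of 12 A genes, 1 of 7 B genes and 1 of 3 C-type genes did, each with both marks. H3K4me3 without H3K27ac stood at 2 of 53 starts, near the 3.89% of all genes and 6.04% of plus-strand genes. H3K27ac without H3K4me3 stood at none, against 4.35% of all genes and 2.05% of plus-strand genes, shares that amount to few genes among 53.

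**Figure D1:**
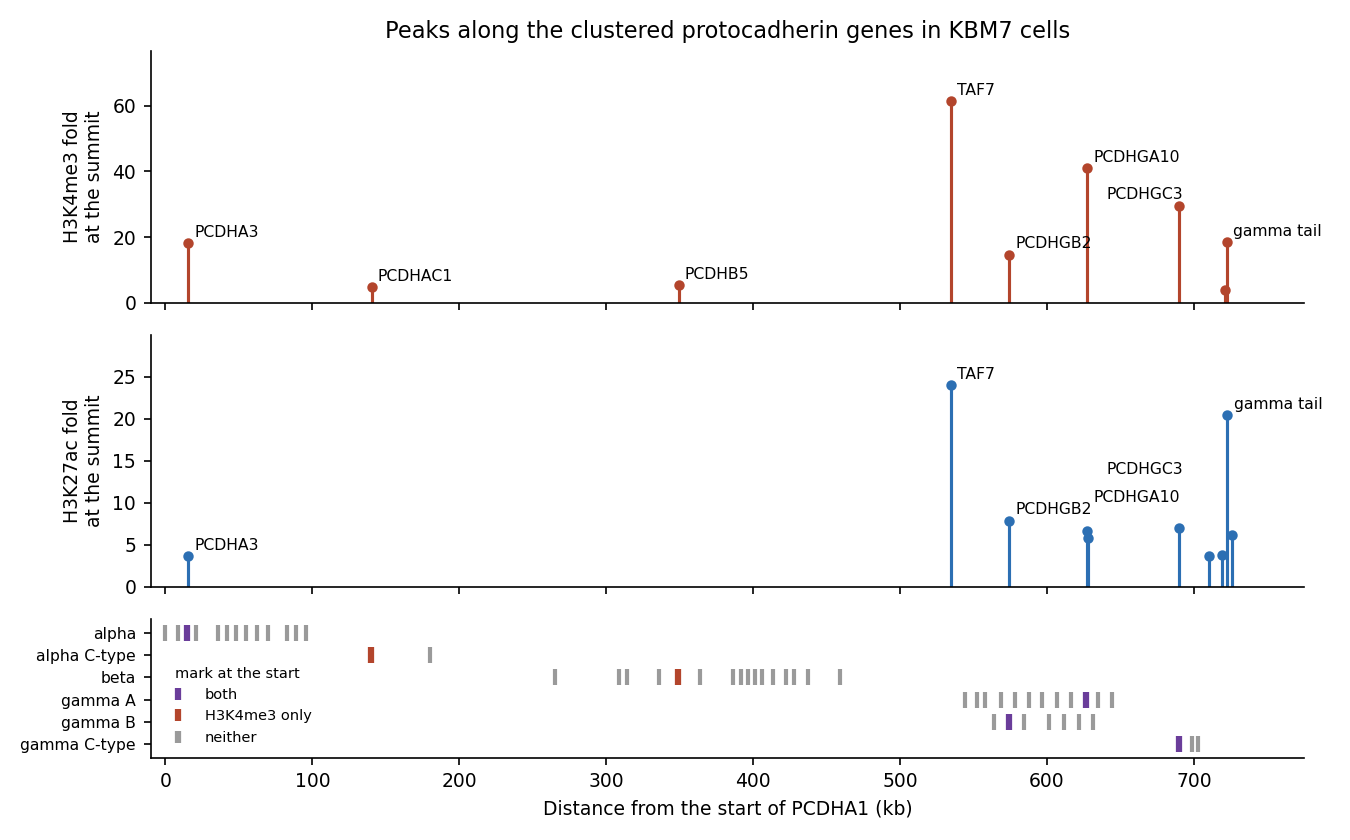
Fold enrichment at the summit of every H3K4me3 (upper panel) and H3K27ac peak (middle panel) against the distance in kb from the start of PCDHA1, with the 53 starts below as ticks coloured by the marks they carry. Marked starts are single ticks among bare neighbours, TAF7 is the tallest peak of both marks (61.4 and 24.0), and "gamma tail" labels the strongest of the peaks inside all 22 gamma records and away from every start.

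At PCDHA3, the single marked gene of the regular alpha series, the H3K4me3 peak ran from 140800976 to 140801864 with 141 fragments at its summit (exact 95% Poisson interval 119 to 166) and a fold of 18.1. The fold is the authors' value, which equals fragments plus 1 over the expected background plus 1, and intervals cover counting error only. Its H3K27ac peak was weak, 196 bp wide with 29 fragments (19.4 to 41.6) and a fold of 3.64. The expected background there was 6.85 for H3K4me3 and 7.25 for H3K27ac, above the medians of the lists, 2.66 and 3.63. First exons of clustered protocadherin genes resemble one another, and whether reads that fit several copies were kept or dropped is not stated. The effect of such reads on these values, on the bare starts and on the peak extents was not tested. The H3K27ac peak of PCDHA3 was the least secure of the 4: it did not count in the 50% of peaks with the highest fold, nor when 200 bp of overlap were required.

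The other 12 regular alpha genes, PCDHA1, PCDHA2 and PCDHA4 to PCDHA13, had neither mark. The nearest peak of any kind lay 5204 bp from the start of PCDHA4 and 57413 bp from that of PCDHA11. PCDHAC1, the first alpha C-type gene, had an H3K4me3 peak of 186 bp from 140926370 to 140926555 with 13 fragments (exact Poisson interval 6.92 to 22.2) and a fold of 4.79. This is close to the smallest summit of the list, 8 fragments. The expected background at PCDHAC1, 1.92, was the lowest of the H3K4me3 list. PCDHAC2, the other alpha C-type gene, had neither mark, and its nearest peak was 39921 bp away.

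Among the 16 beta genes PCDHB5 alone carried a mark, an H3K4me3 peak of 378 bp from 141135231 to 141135608. Its summit held 21 fragments (exact Poisson interval 13.0 to 32.1) over an expected 3.11, a fold of 5.35. The other 15, PCDHB1 to PCDHB4 and PCDHB6 to PCDHB16, had neither, and the nearest peaks lay 13413 bp (PCDHB4) to 87735 bp (PCDHB14) from their starts. The weak peaks of PCDHAC1 and PCDHB5 were lost when only the 50% of peaks with the highest fold were read, and then 4 members had H3K4me3. The interval of PCDHAC1 overlaps that of PCDHB5.

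In the gamma cluster 3 starts carried both marks. PCDHGA10 had the highest H3K4me3 of all members, 193 fragments (exact Poisson interval 167 to 222) and a fold of 41.0 over 1104 bp, from 141412946 to 141414049. H3K27ac stood there in 2 neighbouring peaks, with 42 fragments (30.3 to 56.8, fold 6.68) and 21 fragments (13.0 to 32.1, fold 5.79). The expected H3K27ac background was 5.44 at the first and 2.80, the lowest of the list, at the second.

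PCDHGC3, the first gamma C-type gene, had 104 H3K4me3 fragments (exact Poisson interval 85.0 to 126) and a fold of 29.6 over 1237 bp, from 141475444 to 141476680. Its H3K27ac peak of 826 bp held 32 fragments (21.9 to 45.2) with a fold of 7.01. PCDHGB2 had 50 H3K4me3 fragments (37.1 to 65.9) and a fold of 14.6 over 581 bp, from 141359957 to 141360537. Its H3K27ac fold, 7.89 from 29 fragments (19.4 to 41.6), was the highest of the 4 by fold, over the lowest expected background of the list, 2.80.

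By H3K4me3 fragments PCDHGA10 and PCDHA3 led, with intervals that just fail to overlap (bounds of 167 and 166). PCDHA3 and PCDHGC3 have intervals that overlap, and PCDHGB2 lay below all 3. By fold PCDHGC3 (29.6) stood above PCDHA3 (18.1), whose expected background was higher (6.85 against 2.55). For H3K27ac the summits of the 4 genes, 29 to 42 fragments, have overlapping intervals, so no order of these counts can be read. Their folds ran from 3.64 (PCDHA3, expected background 7.25) to 7.89 (PCDHGB2, expected background 2.8). Neighbours of the marked gamma genes were bare: PCDHGA5, the gene after PCDHGB2, has its start 3625 bp from the nearest peak, and PCDHGB7, the gene after PCDHGA10, 3628 bp. The other 17 unmarked gamma genes lay between 4925 bp (PCDHGB6) and 25248 bp (PCDHGB4) from one. A window of 500 bp or of 2 kb thus gave the same 6 genes.

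**Figure D2:**
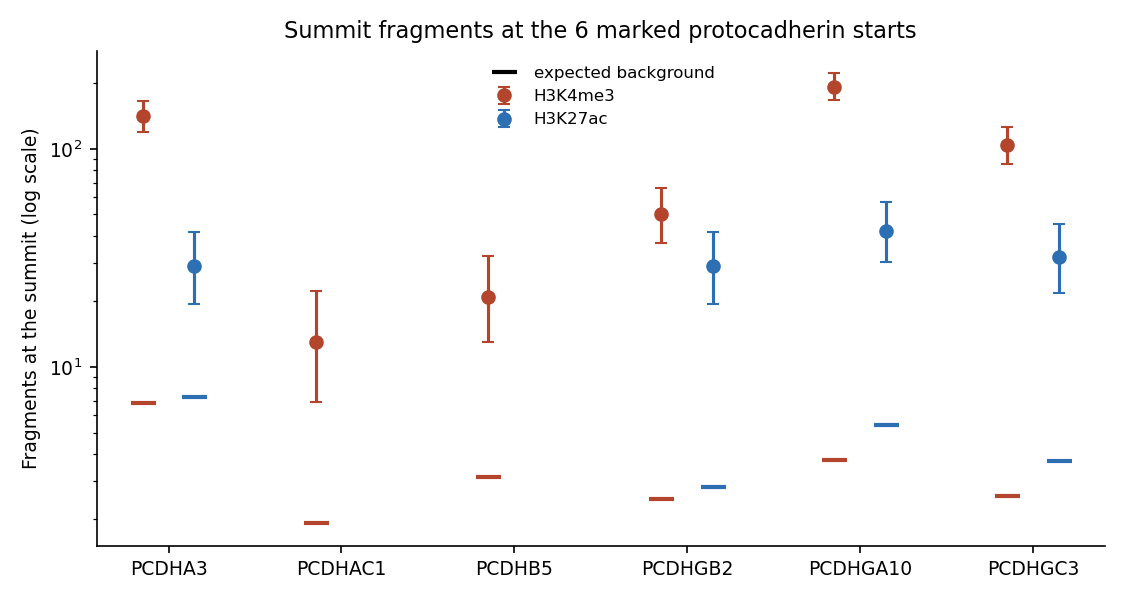
Fragments at the H3K4me3 and H3K27ac summits of the 6 marked members on a log axis, 1 library per mark, with exact 95% Poisson intervals as bars and the expected background as dashes (for PCDHGA10 the stronger of its 2 H3K27ac peaks). H3K4me3 spans 13 (PCDHAC1) to 193 fragments (PCDHGA10), whereas the 4 H3K27ac summits lie between 29 and 42.

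Even the marked starts were weak next to other genes. Among 7561 genes with H3K4me3 at the lower coordinate the median fold was 62.0 (interquartile range 45.6 to 74.7). PCDHGA10 stood at percentile 19.9 of these genes, PCDHGC3 at 13.1, PCDHA3 at 9.38, PCDHGB2 at 8.04, PCDHB5 at 2.53 and PCDHAC1 at 1.63. Among 7654 genes with H3K27ac there the median fold was 21.5 (12.5 to 29.5), and PCDHGB2 stood at percentile 16.2, PCDHGC3 at 14.6, PCDHGA10 at 13.9 and PCDHA3 at 3.42. No marked member stood above percentile 19.9 for either mark among the genes with that mark. Among all H3K4me3 peaks the same members stood higher, from percentile 22.4 (PCDHAC1) to 68.7 (PCDHGA10).

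**Figure D3:**
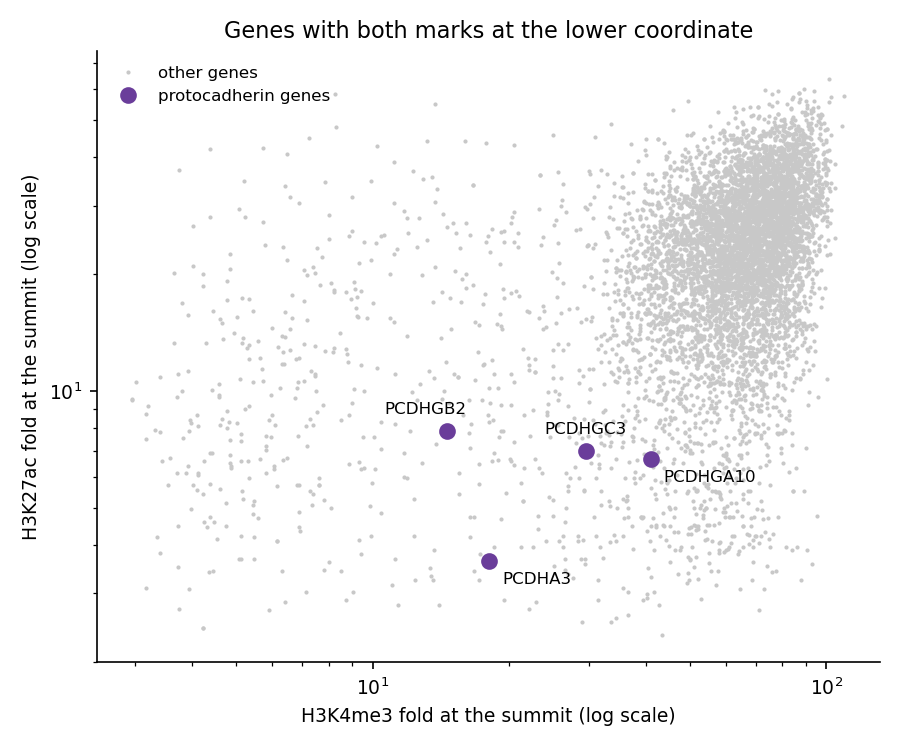
H3K27ac fold against H3K4me3 fold, both on log axes, for the genes with both marks at the lower coordinate (6785 points, strongest peak of each mark). The 4 protocadherin genes lie at the lower edge of the cloud, at H3K27ac folds of 3.64 to 7.89, where the median gene with both marks has 23.1.

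The peaks were also narrow and one-sided. The H3K4me3 peaks of the 4 genes with both marks were 581 to 1237 bp wide, against a median of 2518 bp (1764 to 3384) over all genes with the mark. At PCDHA3, PCDHGB2 and PCDHGA10 they began 81, 37 and 41 bp before the start and ended 807, 543 and 1062 bp after it. At PCDHAC1 and PCDHB5 they began only 71 and 25 bp after the start. PCDHGC3 differed, with 522 bp before the start and 714 bp after it.

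In 5364 other plus-strand genes with H3K4me3 the median peak reached 780 bp before the start (interquartile range 450 to 1295) and 1682.5 bp into the gene. It reached at most 100 bp before the start in 9.12% of them, compared with 5 of the 6 marked members. Among the 392 of those genes whose peak was as narrow as in the 4 members with both marks, 23.2% did, compared with 3 of these 4. The peaks of PCDHAC1 and PCDHB5, 186 and 378 bp wide, were narrower than these and had no matched set. The promoter table places the start of PCDHGB2 142 bp further in, and from there its peak reached 179 bp upstream and 401 bp downstream. It would then no longer count among the 3 or among the 5. PCDHA3 has no entry in that table, so its start could not be checked. Summits of H3K4me3 lay 123 to 257 bp inside the gene in all 6. The H3K27ac peaks lay wholly inside the H3K4me3 peaks and covered 22% of that peak at PCDHA3, 52.7% at PCDHGB2, 66.8% at PCDHGC3 and 80.2% at PCDHGA10. The nearest summits of the 2 marks were 1 bp apart at PCDHGA10 and 72 bp apart at PCDHGB2.

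**Figure D4:**
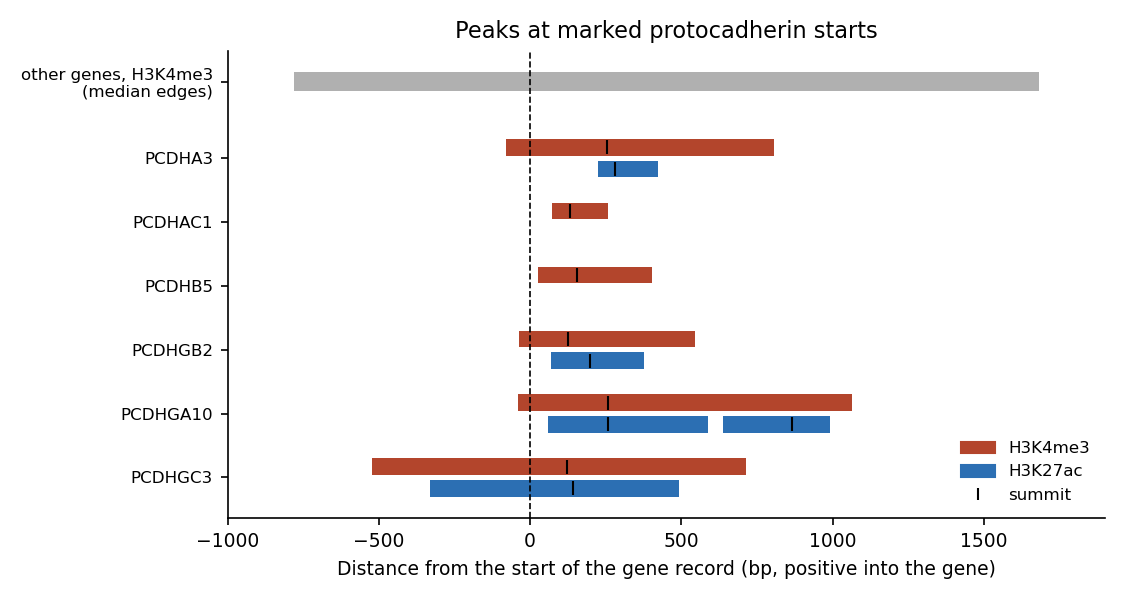
Extent of each peak at the 6 marked starts, in bp from the start of the gene record, with summits as black ticks, and in grey the median edges of H3K4me3 peaks at 5364 other plus-strand genes. Apart from PCDHGC3 the H3K4me3 bars begin within 100 bp of the start or after it, and PCDHGC3 begins 522 bp before it.

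Between the marked starts the locus held long stretches without a peak. The records span 727 kb and hold 9 H3K4me3 and 10 H3K27ac peaks, of which 6 and 5 lie at the starts of members. No H3K27ac peak lies between 140801478, at PCDHA3, and 141320335, a stretch of 519 kb with 28 starts that takes in the alpha genes from PCDHA4 on, the whole beta cluster and the space between the 2. For H3K4me3 the longest stretch was 209 kb, between the peaks of PCDHAC1 and PCDHB5, with 5 bare starts (PCDHAC2 and PCDHB1 to PCDHB4). The span had 13.8 H3K27ac peaks per Mb against 24.4 over chromosome 5, and 12.4 H3K4me3 peaks per Mb against 9.14. The 6 protocadherin pseudogenes in the locus, among them PCDHA14 and PCDHB17P, had no peak of either mark within 1 kb of their records. The share over other pseudogenes was not read, so this count is a description only.

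The first stretch ended at TAF7, which encodes a subunit of the general transcription factor TFIID and lies between the beta and gamma clusters. Its H3K4me3 peak ran from 141319577 to 141321668, with a fold of 61.4 and 238 fragments (exact Poisson interval 209 to 270), an interval that overlaps that of PCDHGA10 (167 to 222), and its H3K27ac peak, from 141320335 to 141321553, had a fold of 24.0. SLC25A2, a mitochondrial carrier gene beside it, had neither mark. ZMAT2, the nearest protein-coding gene before the alpha cluster, had folds of 61.2 and 9.74 for H3K4me3 and H3K27ac, and DIAPH1, an actin regulator after the gamma cluster, 74.4 and 37.3.

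The strongest H3K27ac of the protocadherin genes themselves was not at a start. Inside the shared last part of all 22 gamma records an H3K27ac peak of 4995 bp ran from 141506389 to 141511383, with 149 fragments (exact Poisson interval 126 to 175) and a fold of 20.4, at percentile 90.3 of its list. Its count lies above that of every member start, the highest of which is 42 (30.3 to 56.8). In the same list PCDHGB2 stood at percentile 74.2, PCDHGC3 at 71.3 and the peaks of PCDHGA10 at 69.9 and 65.0. The H3K27ac peak of PCDHA3 lay in the lower 50%. An H3K4me3 peak of 2216 bp lay within the peak of 4995 bp, from 141507630 to 141509845, with 98 fragments (79.6 to 119) and a fold of 18.5. A further H3K27ac peak of fold 6.15 followed from 141511687 to 141512449. Weaker H3K27ac peaks stood before it, from 141505355 to 141505790 (fold 3.82) and from 141495873 to 141496307 (3.68), and a weak H3K4me3 peak ran from 141507388 to 141507587 (3.95). The large peak ended 1.59 kb before the shared end of the gamma records. No gene record of any type begins between 141494873 and 141513449, and no start of the promoter table lies there. Exon positions were not used here, so whether these peaks cover the constant exons was not determined.

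No super-enhancer of the authors' deposited table overlapped the protocadherin records, and none had a member as its target. In the authors' deposited table the nearest after the cluster was assigned to DIAPH1, 79.6 kb beyond the gamma end, at rank 226. The nearest before it in the authors' deposited table was assigned to CXXC5.

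Protocadherins outside the clusters had both marks at few genes too. These genes lie on either strand, so both ends of each record were read. There 60.4% of all genes had both marks, 6.35% had H3K4me3 without H3K27ac and 30.4% had neither. A mark at either end counted in these shares, so the 2 marks of a gene need not share an end. Of 12 protocadherins outside the clusters 2 had both marks, PCDH12 and PCDH9, 6 had H3K4me3 only, and 4 had neither (PCDH10, PCDH15, PCDH18 and PCDH8). PCDH9 had folds of 58.8 and 23.8 for H3K4me3 and H3K27ac, above every start of a clustered gene, and PCDH1 had an H3K4me3 fold of 47.1. The rest were weaker. PCDH12 had folds of 5.44 and 6.15, and the other genes with H3K4me3 only ran from 5.82 (PCDH17) to 22.6 (PCDH20). These H3K4me3 folds lie within the range of the marked clustered starts, 4.79 (PCDHAC1) to 41.0 (PCDHGA10).

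Genes for the machinery that acts on protocadherin promoters carried both marks. Both ends of each record were read here too, with the same shares over all genes, 60.4% for both marks, 6.35% for H3K4me3 alone and 30.4% for neither. All 19 regulators read, which include cohesin subunits and silencing factors, had both marks. The folds for H3K4me3 and H3K27ac were 77.5 and 38.3 at CTCF, 37.8 and 26.6 at the maintenance DNA methyltransferase DNMT1, and 98.9 and 32.5 at the de novo methyltransferase DNMT3A. Of 14 genes for partners of the proteins 11 had both, such as ABI1, a subunit of the WAVE complex (83.7 and 39.9), and ADAM10, a protease that cuts protocadherins (72.3 and 30.9), and 3 had H3K4me3 only, namely FYN, NLGN1 and PTK2. The labelled cell type was looked at in the same way, with marker lists chosen when earlier results of these data were known. All 12 myeloid and stem cell markers, such as CD33, CD34, CEBPA and GATA2, had both marks. Of 12 neuronal markers 1 did (SYN1), 4 had H3K4me3 only and 7 had neither, among them DCX, ELAVL4, GAD1 and GAP43.

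The promoters of the members differed from most promoters in base composition, and the values of marked and bare members overlapped. Of the 53 members 47 have an entry in the table, and PCDHA3, PCDHA13, PCDHB6, PCDHB11, PCDHGA12 and PCDHGC5 do not. In the 250 bases before the start the median share of G and C was 37.6% (30.0 to 63.2%) for the members and 62.4% for 15764 other genes. The 4 C-type entries were the richest, at 57.6 to 63.2%. Among the marked members PCDHGA10 and PCDHB5 had 35.2%, PCDHGB2 48.8%, PCDHGC3 60.0% and PCDHAC1 63.2%, and the 42 bare ones ranged from 30.0 to 62.4%. For PCDHGB2 the 250 bases precede a start 142 bp inside the gene record, whereas for the other entries they precede the record itself. Its composition, and its words counted below, thus come from a shifted window. In CpG pairs PCDHGA10 had 3, PCDHB5 4, PCDHGB2 7, PCDHGC3 15 and PCDHAC1 18, and the bare ones 2 to 14. PCDHAC1 and PCDHGC3 held more CpG pairs than any bare member, PCDHGC3 narrowly (15 against 14). The other marked members lay within the range of the bare ones.

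**Figure D5:**
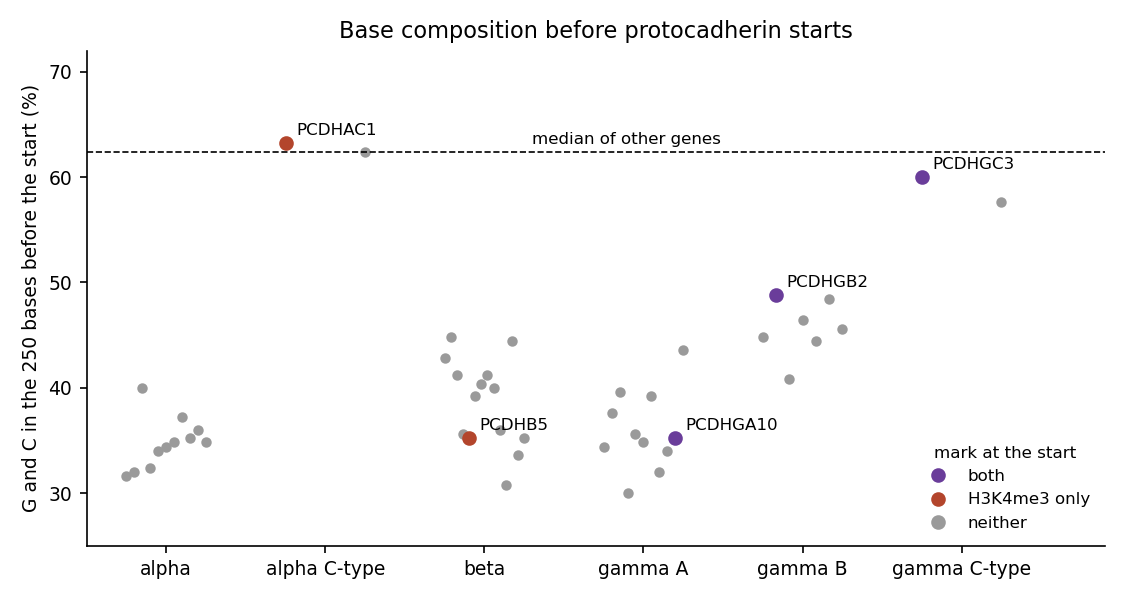
Share of G and C in the 250 bases before the start for the 47 members with an entry, by subfamily, coloured by the marks at the start, with the median of other genes (62.4%) as a dashed line. PCDHGA10 and PCDHB5 lie among the bare genes of their subfamilies at 35.2%, and the C-type genes lie highest whether marked or bare. For PCDHGB2 the bases precede a start 142 bp inside the gene record.

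What the members shared was the CGCT word. On the strand of the gene it occurred in 45 of 47 entries (95.7%, against 57.4% of other genes), and it began 20 to 100 bases before the start in 43 (91.5%, against 29.6%). That interval was chosen after the positions were seen. PCDHGA9 and PCDHGA10 hold it in nearly the same setting, as the sequences above show, and only the second carried a mark. Counting both strands it occurred in 95.7% of members and 75.7% of other genes. For PCDHGB2, whose entry begins further in, it lies 57 bases before the gene record. PCDHA9 and PCDHB8 had no copy.

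The CTCF core written as AGNNGGCGC was found on either strand in 2 of 47 members, PCDHB7 and PCDHB9 (4.26%, against 11.1% of other genes), both without a mark. Its shorter form AGNNGGC, which every copy of the longer one contains, was found in 10 (21.3%, against 63.6%). Of these carriers 8 had no mark, and the others were PCDHAC1 and PCDHGB2. The TATAAA word was found in 6 (12.8%, against 9.35%), all without a mark. Since 42 of the 47 members with an entry have no mark, no link between these words and the marks can be read. Only the bases before the start were searched, so copies of these words inside the genes were not counted. Other spellings of a CTCF site were not searched, and whether the CGCT word forms part of such a site was not tested. The shares are thus no measure of how many CTCF sites the promoters hold. Members hold less G and C there, with a median of 37.6% against 62.4% for other genes. Whether this accounts for the lower shares of AGNNGGCGC and AGNNGGC was not tested. A match is a string of letters and no measure of binding.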

How the data were processed

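ChIP-seq peak lists of 1 H3K27ac and 1 H3K4me3 library of KBM7 cells were used, and the input library was read here only through the super-enhancer table. Build hg38, Bowtie2 2.3.4 and bedtools 2.20.1 are named in the submitters' processing notes. No source used here names the peak caller, the total reads per library, or whether the input entered peak calling and so the fold and the expected background. The deposited lists give a fold ratio at the summit, −log10 p and −log10 q, and a score equal to 10 times the −log10 q. The fold and p fit a whole number of fragments and an expected Poisson background in 100% of rows (tolerance 0.01 in −log10 p), which gave the fragments. The lowest −log10 q was 1.33 for H3K4me3 and 1.32 for H3K27ac. The lists hold 36951 and 96659 peaks on chromosomes 1 to 22 and X, with median summits of 39 and 21 fragments and lowest of 8 and 9. The deposited super-enhancer table gives total signal, of unstated scaling.

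Gene records and promoter sequences came from RefSeq (GRCh38.p14), each gene counted once. Named were all marked members, the peaks between them by fold, genes inside or beside the cluster, and at most 4 list genes with both marks or neither in alphabetical order. List genes with H3K4me3 alone were picked after their values were seen. The members and lists were chosen with earlier results of these data known. Overlap counting and fragment recovery were tested on simulated data. Python 3.11.15, pandas 2.3.3 and scipy 1.17.1 were used. Alternatives changed the window, the peak threshold, the overlap and the start position.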

Additional observations from a re-analysis of the deposited data

How the results depend on the processing

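The counts of members stayed within 1.5 times their value under the 7 alternatives, with 4 to 6 members carrying H3K4me3, 3 or 4 H3K27ac, 3 or 4 both and 42 to 49 neither, where the 42 come from the 47 members that the promoter table holds. PCDHGA10, PCDHGB2 and PCDHGC3 had both marks under each of the 7. The shares of all genes left their 95% binomial interval under 6 of the 7 (all but a −log10 q of at least 3). That interval treats genes as independent and is far tighter than the limit of 1.5 times used for the members. Which of the 2 held steadier therefore cannot be read from these labels. For H3K4me3, H3K27ac and both marks they were 36.0, 36.1 and 32.3% with a window of 500 bp and 41.0, 41.9 and 36.7% with 2 kb. They were 35.5, 35.4 and 31.9% with the top 50% of peaks by fold, 37.0, 37.1 and 33.2% with an overlap of 200 bp, and 33.2, 35.1 and 29.1% with the summit in the window. With the strand-aware start of the promoter table they were 69.7, 65.1 and 63.3%, over the 15811 genes of that table in place of 19970, so the change of start and the change of gene set cannot be told apart. No paired analysis was possible because each mark has 1 library. Summits below 8 (H3K4me3) and 9 fragments (H3K27ac) are in neither list, so marks weaker than these could not be seen at the bare starts. Where the expected background is higher, larger counts may have been missed too. The background at the bare starts is not known.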
